A study of Rattus norvegicus with 10 samples.

Results

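The cytosolic chaperonin CCT, also called TRiC, was described here through the liver transcripts of its 8 subunits, Tcp1 (the alpha subunit), Cct2, Cct3, Cct4, Cct5, Cct6a, Cct7 and Cct8. Its members were all probe sets that the platform annotation gives to exactly 1 gene, that gene being 1 of these subunits. This gave 11 probe sets for all 8 genes, out of 9378 genes with such a probe set on the array. Cct5, Cct6a and Cct8 each had a second, dimmer probe set. The family was chosen by the measured difference in subunit signal between the RG3487 and vehicle livers, which was already known. The subunits' own values in that contrast are therefore given as a description, without a test for any subunit.

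The study measured liver RNA of 10 CRL:WI (Han) rats aged 6 to 8 weeks on Affymetrix arrays, with 1 array per animal. The RG3487 group held 5 rats given the compound at 180 mg/kg by gavage in 5 ml/kg. The vehicle group held 5 rats that received deionized water by the same route and volume. RG3487 is known as a ligand of the alpha7 nicotinic receptor that also binds the 5-HT3 receptor. Per the sample labels livers were taken at 24 h, whereas the design text of the series gives 2 h. The sex of the animals was not stated. Rats were kept 5 to a housing group, and which animals shared one was not stated.

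CCT is a double ring built from 8 different but related subunits, each of which binds and hydrolyses ATP. Unfolded polypeptides enter the central cavity, a built-in lid closes over them, and they are released after folding. Actin and tubulin are its best known obligate clients, and several proteins built of WD40 repeats, among them the beta subunits of G proteins, also pass through it. Prefoldin delivers clients to CCT, phosducin-like proteins act on it as cofactors, and the tubulin folding cofactors take over tubulin after its release. In yeast, mammals and other eukaryotes the subunits are made from separate genes, and a complete ring needs each of them.

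The promoters are shown because the 8 transcripts were higher together while their genes lie apart, Tcp1 on chromosome 1, Cct2 on 7, Cct3 and Cct5 on 2, Cct4 on 14, Cct6a on 12, Cct7 on 4 and Cct8 on 11. RefSeq sequences of the GRCr8 build were found for all 8, running from 250 bases before to 50 bases after the annotated start. Their GC content lay between 52.3% and 66.0%, with a median of 59.9% against 61% over the genes tested on the array that had a sequence. The first 3 below hold the paired units that heat shock factors bind, either GAANNTTC or TTCNNGAA, which read the same on both strands. The last 2 are those of the subunits with the largest and the smallest difference between groups by brightest probe set, and hold neither. The second Cct8 probe set changed by 0.357, close to Cct7 at 0.363. Capitals mark the paired units and the CCAAT box on either strand, and of the promoters shown all but Cct4 hold a CCAAT box. Those of Tcp1, Cct2 and Cct3 are not shown.
Cct4, chr14:101192807-101193106, plus strand: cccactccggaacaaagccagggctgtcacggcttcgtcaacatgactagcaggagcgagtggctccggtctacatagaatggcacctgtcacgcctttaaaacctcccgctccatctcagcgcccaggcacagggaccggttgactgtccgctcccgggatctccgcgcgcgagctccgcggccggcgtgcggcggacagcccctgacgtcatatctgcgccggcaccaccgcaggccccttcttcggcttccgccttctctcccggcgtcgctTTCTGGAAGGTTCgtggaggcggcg
Cct5, chr2:84313724-84314023, minus strand: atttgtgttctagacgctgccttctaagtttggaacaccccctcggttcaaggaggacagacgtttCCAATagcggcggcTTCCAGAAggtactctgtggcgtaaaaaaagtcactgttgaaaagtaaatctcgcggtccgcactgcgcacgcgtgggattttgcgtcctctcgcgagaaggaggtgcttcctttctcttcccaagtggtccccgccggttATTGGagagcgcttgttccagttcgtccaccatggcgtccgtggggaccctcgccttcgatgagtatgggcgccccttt
Cct6a, chr12:32519023-32519322, minus strand: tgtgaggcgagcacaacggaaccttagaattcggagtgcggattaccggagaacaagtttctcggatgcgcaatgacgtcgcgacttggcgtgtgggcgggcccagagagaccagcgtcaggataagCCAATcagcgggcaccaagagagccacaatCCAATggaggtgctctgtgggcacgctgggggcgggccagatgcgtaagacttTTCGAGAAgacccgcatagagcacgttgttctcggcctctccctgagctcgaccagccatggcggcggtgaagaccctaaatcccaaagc
Cct8, chr11:40208279-40208578, minus strand: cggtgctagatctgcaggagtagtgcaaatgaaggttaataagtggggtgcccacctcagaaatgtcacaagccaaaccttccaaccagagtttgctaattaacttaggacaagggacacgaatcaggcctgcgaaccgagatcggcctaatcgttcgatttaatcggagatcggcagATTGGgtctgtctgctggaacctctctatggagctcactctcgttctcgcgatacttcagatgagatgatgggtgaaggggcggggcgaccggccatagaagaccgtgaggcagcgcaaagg
Cct7, chr4:119546480-119546779, plus strand: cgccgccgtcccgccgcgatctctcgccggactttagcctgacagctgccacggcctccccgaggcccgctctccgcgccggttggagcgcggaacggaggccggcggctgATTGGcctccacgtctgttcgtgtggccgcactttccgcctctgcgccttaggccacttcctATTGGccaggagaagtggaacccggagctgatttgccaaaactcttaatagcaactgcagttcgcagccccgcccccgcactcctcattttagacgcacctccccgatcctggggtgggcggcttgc

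Either heat shock pair was present in 3 of the 8 subunit promoters, and in 15.4% of 27457 promoters of the same length (11.7% of those of 6557 genes tested on the array). In Cct4 both arrangements overlapped, so that 3 alternating units followed each other, beginning 25 bases after the annotated start. Such a run was found in 0.736% of all promoters, in 0.488% of those of tested genes and in no other subunit's. The CCAAT box was present in 5 of 8 (Cct3, Cct5, Cct6a, Cct7 and Cct8), against 37.7% of all promoters and 38.9% of those of tested genes. The core of the xenobiotic response element, GCGTG on either strand, which the Ah receptor binds, was present in 6 of 8, against 31.1% of all promoters and 51.4% of those of tested genes. The antioxidant response core TGACNNNGC, which NRF2 binds, was in 2 of 8, against 12.2% of all promoters and 14.9% of those of tested genes. The ETS core CCGGAA was in 2 of 8, against 15.8% of all promoters and 31.6% of those of tested genes. The E-box CACGTG was in 0 of 8, against 6.65% and 10.1%. All motifs were searched on both strands, and their matches may overlap each other. These matches are letters in a window, not measured binding.

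Array means of the deposited MAS5 signal, a linear intensity per probe set, lay between 330 and 332. Array medians averaged 94.8 ± 1.6 in the RG3487 livers and 89.0 ± 3.2 in the vehicle livers (SD, n = 5 each), a difference with an exact two-sided permutation p of 0.0159. The 18 hybridization spike-in probe sets averaged 9.65 in the RG3487 livers and 9.85 in the vehicle livers on the log2 scale (exact two-sided permutation p = 0.00794, the smallest that 252 regroupings allow). Log2 values were taken after adding 16 to the signal, which makes the fold of a dim probe set smaller than the ratio of its means. In limma's fit of all 11894 probe sets left after the dimmest 25% were set aside, 2443 were higher and 852 lower with RG3487 at a Benjamini-Hochberg adjusted p under 0.05, the threshold used below. The median change of the 7727 genes, each taken by its brightest probe set, was 0.09 on the log2 scale. In the liver as a whole, fewer cells of a type and less RNA per cell cannot be told apart.

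All 8 CCT subunits were higher in the RG3487 livers. Their log2 changes ran from 0.36 (1.29-fold) in Cct7 to 0.72 (1.65-fold) in Cct8, with a median of 0.56 (1.48-fold), which lay 0.47 above the median change of all genes. With arrays centred on their median it was 0.48, and with arrays scaled to the spike-in probe sets it was 0.76. All 11 probe sets were kept by the filter on dim signals, and all 11 passed the threshold as higher and 0 as lower, against 20.5% and 7.16% of all probe sets tested (27.7% in either direction). The groups did not overlap in 9 of the 11, against 13.9% of all probe sets tested with every RG3487 liver above every vehicle liver (4.48% with every one below). Tcp1, Cct4 and Cct8 reached 1.5-fold, making 3 of 11 probe sets, against 2.09% of all probe sets that passed and rose by as much. Since this contrast was known when the family was proposed, these counts describe the members and support nothing further. Among all genes tested, 1.20% had a larger increase than Cct8 and 10.8% had a larger increase than Cct7.

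**Figure D1:**
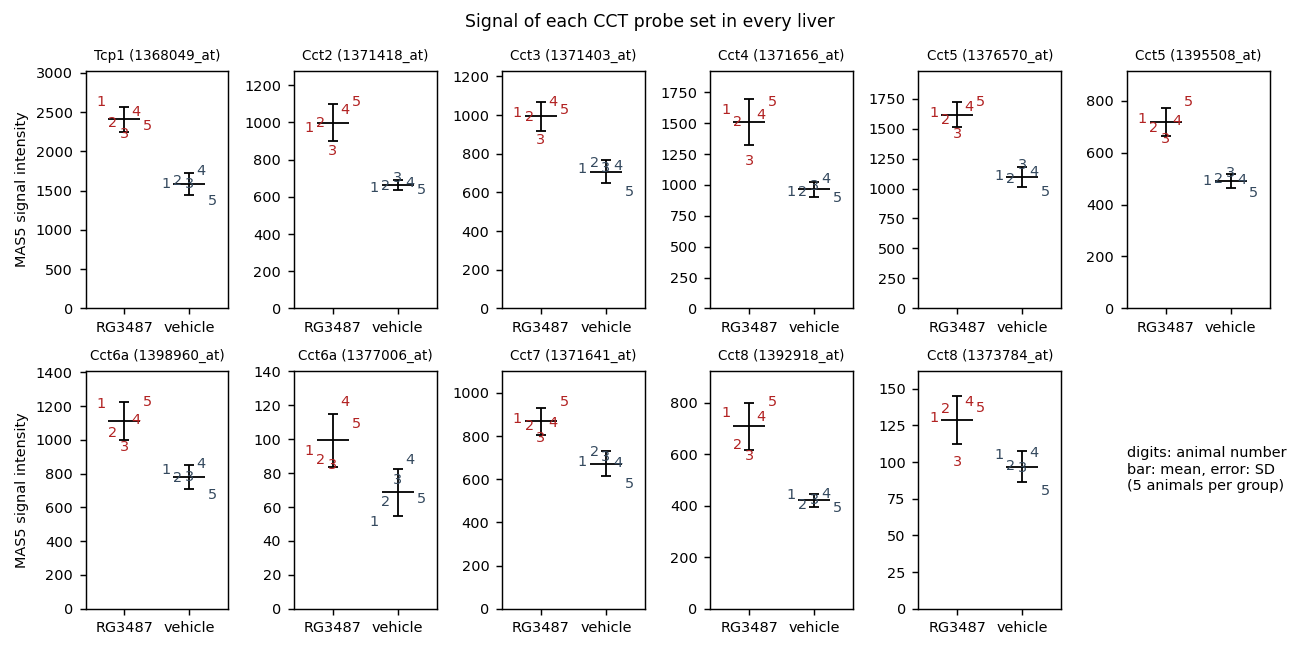
MAS5 signal intensity (linear, axis from 0) of the 11 CCT probe sets, with RG3487 livers left and vehicle livers right in each panel. Digits are animal numbers, and the bar and its error are the mean and SD of 5 animals. Only the second probe sets of Cct6a and Cct8, with signals of at most 122 and 141, have groups that overlap.

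Biochemical work on yeast and bovine CCT places the alpha, beta, delta and epsilon subunits among those that bind ATP tightly. Of these, Tcp1, which gave the complex its first name, had signals of 2632, 2357, 2219, 2503 and 2323 in RG3487 animals 1 to 5, against 1588, 1624, 1582, 1747 and 1368 in vehicle animals 1 to 5. The lowest RG3487 liver, animal 3, lay well above the highest vehicle liver, animal 4. The log2 change was 0.60 ± 0.07 (SE).

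Cct2, altered in a human retinal dystrophy, had signals of 973, 999, 848, 1066 and 1112 in the RG3487 livers, against 649, 661, 700, 673 and 635 in the vehicle livers. The vehicle livers lay close together, with an SD of 24.8 against 101 in the RG3487 livers, and the log2 change was 0.57 ± 0.07. Cct4, mutated in the rat strain with the mutilated-foot sensory neuropathy, had signals of 1604, 1512, 1197, 1565 and 1675 in the RG3487 livers, against 940, 943, 995, 1048 and 894 in the vehicle livers. Here RG3487 animal 3 stood below the other 4 treated rats but above every vehicle rat. Its log2 change of 0.63 ± 0.09 was the second largest among the subunits.

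Cct5, altered in a human sensory neuropathy, was read by a pair of probe sets. The brighter one gave 1632, 1575, 1456, 1679 and 1724 in the RG3487 livers, against 1108, 1078, 1198, 1134 and 974 in the vehicle livers. The dimmer one gave 731, 695, 651, 721 and 796 in the RG3487 livers, against 492, 499, 522, 495 and 445 in the vehicle livers. Both separated the groups, with log2 changes of 0.55 ± 0.07 and 0.54 ± 0.07, and their changes differed by 0.01 ± 0.02 (SE).

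The other 4 subunits bind ATP less tightly in the same work, and they held both ends of the range of changes. Cct3 had signals of 1009, 990, 870, 1069 and 1025 in the RG3487 livers, against 722, 751, 728, 735 and 600 in the vehicle livers. Vehicle animal 5 stood apart below the other vehicle rats, and the log2 change was 0.48 ± 0.07. Cct7 had signals of 881, 848, 789, 862 and 958 in the RG3487 livers, against 681, 726, 701, 675 and 576 in the vehicle livers. Its groups came closest to each other among the brightest probe sets, with a lowest RG3487 signal of 789 against a highest vehicle signal of 726. The log2 change was 0.36 ± 0.07.

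Cct6a, whose paralogue Cct6b is known from testis, had signals of 1211, 1040, 960, 1120 and 1224 in the RG3487 livers, against 819, 773, 782, 854 and 672 in the vehicle livers (log2 change 0.50 ± 0.08). Its second probe set was dim, at 93, 88, 85, 122 and 109 in the RG3487 livers, against 51, 63, 76, 88 and 65 in the vehicle livers. There the groups overlapped at vehicle animal 4, and the log2 change was 0.45 ± 0.12.

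Cct8 had signals of 763, 637, 592, 747 and 804 in the RG3487 livers, against 444, 402, 424, 448 and 392 in the vehicle livers. Every RG3487 liver exceeded the highest vehicle liver, and the log2 change was 0.72 ± 0.09. Its second probe set gave 130, 136, 100, 141 and 137 in the RG3487 livers, against 105, 97, 96, 106 and 80 in the vehicle livers. RG3487 animal 3 lay within the vehicle range there, and the log2 change was 0.36 ± 0.10. The change read by the brighter Cct8 probe set was larger by 0.36 ± 0.07, and the ratios of mean signals, which do not carry the added 16, were 1.68 and 1.33. The size of the Cct8 change thus depended on the probe set, while those of Cct5 and Cct6a did not differ beyond their errors (difference 0.05 ± 0.13 for Cct6a).

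**Figure D2:**
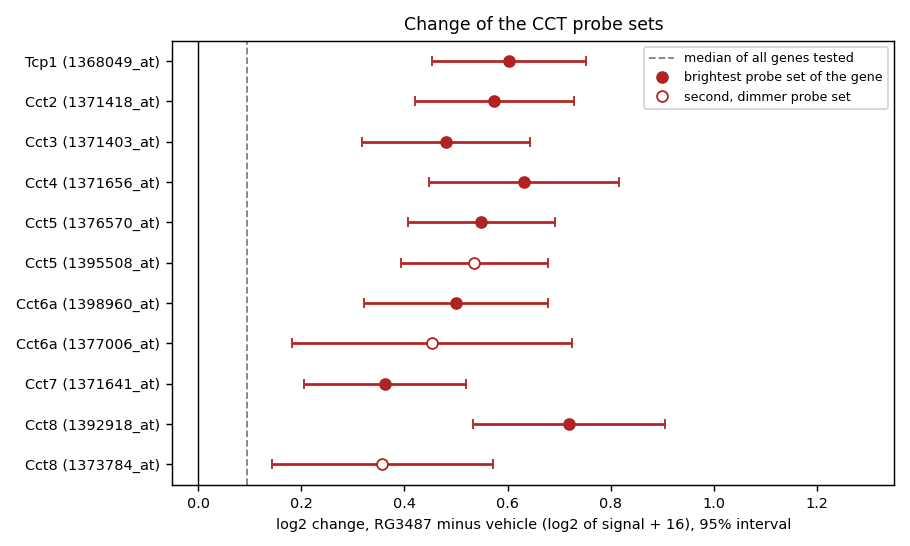
Log2 change of each CCT probe set, RG3487 minus vehicle, with its 95% interval from limma. Filled circles are the brightest probe set of each gene and open circles the second ones, the solid line is no change and the dashed line is the median change of all genes tested (0.09). All 11 intervals lie above 0. Among the filled circles Cct7 and Cct8 sit at opposite ends, and the open circle of Cct8, at 0.357, lies beside Cct7, at 0.363.

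The subunits' changes relative to each other are a description of the same contrast, with no test. Among the 28 pairs of brightest probe sets, the difference between changes was largest for Cct7 and Cct8, at -0.36 ± 0.07 (Cct7 minus Cct8, SE), and the ratio of Cct7 to Cct8 signal was below that of every vehicle liver in 5 of 5 RG3487 livers. The same held for Cct6a and Cct8 (-0.22 ± 0.04, 5 of 5), and in the other direction for Cct5 and Cct7 (0.19 ± 0.04, 5 of 5). Tcp1 and Cct2 differed by 0.03 ± 0.08, Tcp1 and Cct4 by -0.03 ± 0.07, and Cct2 and Cct5 by 0.03 ± 0.04. Cct4 and Cct5, the pair farthest apart among Tcp1, Cct2, Cct4 and Cct5, differed by 0.08 ± 0.06. Their ratio was above that of every vehicle liver in 4 of 5 RG3487 livers and below that of every vehicle liver in 1. The differences from Cct8 are those of its brighter probe set. Its dimmer one differed from that by 0.36, as much as Cct7 did.

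Averaged over the 8 genes, the log2 level stood 0.62, 0.51, 0.36, 0.61 and 0.66 above the vehicle mean in RG3487 animals 1 to 5, against 0.02, 0.01, 0.05, 0.08 and -0.16 in vehicle animals 1 to 5. RG3487 animal 3 had the lowest treated signal in 11 of 11 CCT probe sets, and vehicle animal 5 had the lowest vehicle signal in 10 of 11. Over all probe sets tested, the same animals were lowest in their group in 29.9% and 28.8%. They also had the lowest array median of their group, 92 in RG3487 animal 3 and 85 in vehicle animal 5. The part of these array-wide differences in the subunit values was not tested.

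**Figure D3:**
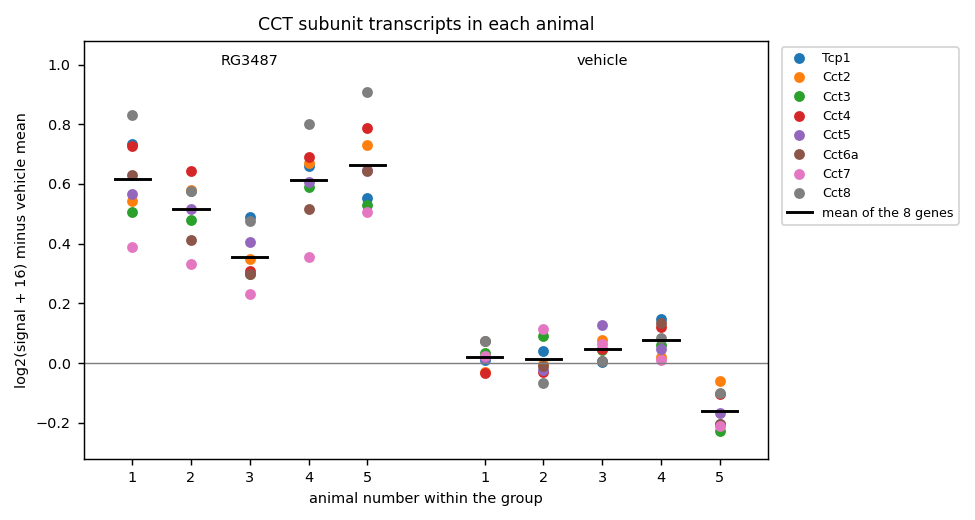
Log2 of signal plus 16 for the 8 CCT genes in each liver, minus the vehicle mean of that gene, with RG3487 animals left and vehicle animals right. Coloured points are genes and the black bars are the mean of the 8 genes in that animal. The lowest RG3487 animal, at 0.36, stands above the highest vehicle animal, at 0.08, and RG3487 animal 3 and vehicle animal 5 are low for nearly every subunit.

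Deviations from the group means use no difference between the groups, and they showed how far the subunits moved together from animal to animal. Over the 10 livers, the Pearson correlation of each subunit with the mean of the other 7 ran from 0.70 in Tcp1 to 0.92 in Cct6a, with a median of 0.86 (median Spearman rho 0.77). Among the other genes, 90% had correlations between -0.62 and 0.75 with the mean of all 8. The share of other genes that followed the remaining subunits more closely than the subunit itself was 7.6% for Tcp1, 3.3% for Cct2, 2.3% for Cct7, 1.5% for Cct8 and under 1% for Cct3 (0.75%), Cct4 (0.65%), Cct5 (0.44%) and Cct6a (0.25%). With arrays centred on their median the median correlation was 0.82. All values come from the same 10 arrays, so array-wide scaling enters every gene.

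These correlations rested largely on RG3487 animal 3 and vehicle animal 5. Without them, over 8 livers, the median correlation was 0.55 and the median share of other genes that were closer was 10.8%. It stayed high for Cct8 (0.85), Cct4 (0.81), Cct6a (0.78) and Cct5 (0.65), and was lower for Cct2 (0.46), Cct7 (0.36), Cct3 (0.31) and Tcp1 (0.10).

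**Figure D4:**
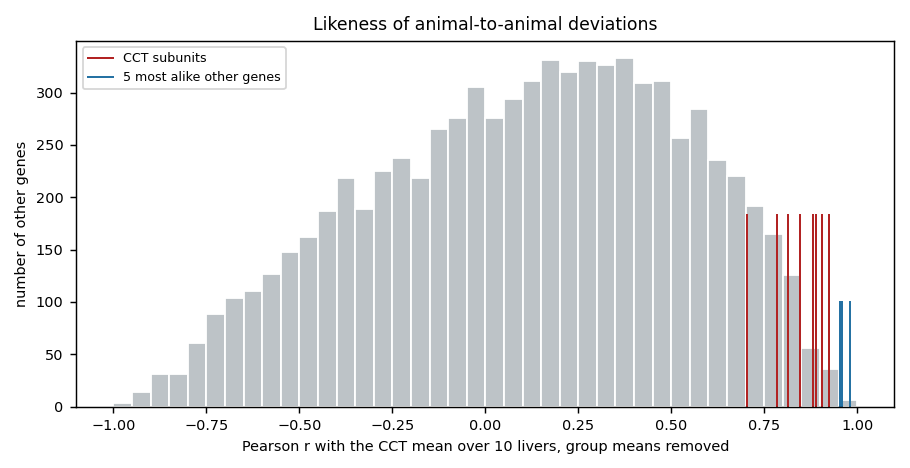
Histogram of the Pearson correlation of each other gene with the mean of the 8 CCT genes over 10 livers, after the group means were removed (y axis, number of genes). Red lines are the CCT subunits, each against the mean of the other 7, and blue lines are the 5 other genes with the highest values. The subunits lie between 0.70 and 0.92 and the 5 other genes between 0.95 and 0.98.

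The 5 other genes with the most similar deviations over the 10 livers were Ahsa1, Pfn1, Emg1, Rabac1 and Tprg1l. Ahsa1, the activator of the HSP90 ATPase, had the highest correlation (Pearson r 0.98, Spearman rho 0.93, and r 0.88 without RG3487 animal 3 and vehicle animal 5). Its signals were 883, 803, 686, 908 and 904 in the RG3487 livers, against 578, 540, 579, 593 and 478 in the vehicle livers, and it rose by 0.58 ± 0.09 (limma, adjusted p = 0.000759). Pfn1, profilin, which binds actin monomers, followed with r 0.96 (rho 0.90, and 0.78 without those animals) and rose by 0.32 ± 0.05 (adjusted p = 0.00167). Emg1, which acts in ribosome biogenesis (r 0.96, rho 0.89), missed the threshold at 0.25 ± 0.14 (adjusted p = 0.206). So did Rabac1 (r 0.95, rho 0.82) at -0.10 ± 0.05 and Tprg1l (r 0.95, rho 0.73) at 0.02 ± 0.08 (adjusted p = 0.149 and 0.888). Among the 5 genes, then, 2 passed the comparison of groups and 3 did not. Rabac1 passed as lower with arrays centred on their median (-0.18, adjusted p = 0.0177) and with quantile normalization (-0.16, adjusted p = 0.0248), where its correlation was 0.71.

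RefSeq places another gene's start within 1000 bases of 3 subunits, on the opposite strand, so that the transcripts run apart. These neighbours were looked up after the subunits' values had been seen. Mrpl18, a protein of the mitochondrial ribosome, starts 425 bases from Tcp1. Its signals were 785, 845, 731, 959 and 973 in the RG3487 livers, against 630, 732, 712, 632 and 612 in the vehicle livers. The groups overlapped by 1 unit of signal, and it rose by 0.36 ± 0.09 (limma, adjusted p = 0.0102), beside 0.60 ± 0.07 for Tcp1. Pradc1 starts 194 bases from Cct7 and changed by -0.11 ± 0.06 without passing (adjusted p = 0.186), though it passed as lower with quantile normalization (-0.21, adjusted p = 0.0334) and with arrays centred on their median (-0.19, adjusted p = 0.0486). Tsacc, 297 bases from Cct3, was not analysed here.

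Genes that work with CCT, its clients, other chaperone systems and heat shock factors were taken from lists that did not enter the choice of members. The lists were chosen with earlier results of these data known, so their shares are a description. Of 54 such genes tested, 22 rose, 0 fell and 32 did not pass, which makes 40.7% higher, against 22.3% of all genes tested and 7.4% lower. No gene of the 54 was lower at an unadjusted p under 0.05 in limma's fit either, while with quantile normalization 14 rose and 1 fell. The median change over the 54 genes was 0.23, and 0.09 over all genes tested. Of the 22, 12 passed under every alternative run except a minimum of 1.5-fold, namely Actg1, Dnaja1, Dnaja2, Hsp90ab1, Hspd1, Hspe1, Stip1, Tbcel, Tuba4a, Tubb4b, Tubb5 and Tubg1. Tuba4a, Tbcel and Tubb4b had the largest increases of the 54, followed by Stip1.

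Prefoldin, the jawed hexamer that hands unfolded actin and tubulin to CCT, had 5 of its subunit genes tested, of which 3 rose. Pfdn2 had signals of 756, 741, 610, 803 and 806 in the RG3487 livers, against 505, 515, 580, 571 and 514 in the vehicle livers. Every treated liver lay above every vehicle liver, and Pfdn2 rose by 0.45 ± 0.08 (limma, adjusted p = 0.00189). A second, dim Pfdn2 probe set missed it at -0.09 ± 0.09, and the mean of both did not pass either (0.18, adjusted p = 0.0635). Pfdn5 rose by 0.26 ± 0.06 (adjusted p = 0.00732) with no overlap of the groups, and Pfdn4 by 0.25 ± 0.08 (adjusted p = 0.0305) with overlap. Pfdn4 did not pass without RG3487 animal 1 or 5 or vehicle animal 2, 3 or 5 (adjusted p = 0.0612 to 0.0723). Pfdn1 (0.08 ± 0.08) and Pfdn6 (0.07 ± 0.08) did not pass. The median of the 5 was 0.25. Pfdn4 and Pfdn5 lost their calls with arrays centred on their median (adjusted p = 0.109 and 0.0591) and with quantile normalization (0.159 and 0.0784).

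None of the 7 prefoldin-like and R2TP genes, which assemble larger complexes with HSP90, passed in limma's fit, and their median was 0.16. At an unadjusted p under 0.05, 3 were higher. Over all genes tested, 22.3% rose at the adjusted threshold, and the share at the unadjusted p is not given here. Pdrg1 (0.24 ± 0.09, adjusted p = 0.052), Ruvbl1 (0.23 ± 0.08, adjusted p = 0.0587) and Ruvbl2 (0.23 ± 0.10, adjusted p = 0.117) came closest. Pdrg1 and Ruvbl1 passed without RG3487 animal 3 (adjusted p = 0.00731 and 0.0224), and Ruvbl2 without RG3487 animal 5 (adjusted p = 0.0299). The phosducin-like cofactors Pdcl (0.06 ± 0.09), Pdcl3 (0.11 ± 0.07) and Txndc9 (0.35 ± 0.15, adjusted p = 0.108) did not pass, with 1 of the 3 under an unadjusted p of 0.05, but Txndc9 did without vehicle animal 3 (adjusted p = 0.038). Centring the arrays on their median moved Txndc9 further from the threshold (limma, adjusted p = 0.231). Mkks, a protein related to CCT that helps assemble the BBSome, changed by 0.16 ± 0.10 without passing (adjusted p = 0.236).

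Of the tubulin folding cofactors and the related Tbcel, 3 of 6 genes rose. Tbcel, a relative of the cofactor Tbce that acts on tubulin stability, had signals of 419, 376, 318, 487 and 414 in the RG3487 livers, against 216, 202, 196, 208 and 194 in the vehicle livers. The groups lay far apart, and it rose by 0.92 ± 0.10 (1.89-fold, limma, adjusted p = 9.26e-05). Tbca, which binds beta-tubulin, rose by 0.23 ± 0.07 (adjusted p = 0.0254) and Tbcb, which binds alpha-tubulin, by 0.25 ± 0.08 (adjusted p = 0.0342). Tbca did not pass without RG3487 animal 2 or 4 or vehicle animal 1 or 2 (adjusted p = 0.0525 to 0.0633), nor Tbcb without RG3487 animal 1, 2, 4 or 5 or vehicle animal 1 or 5 (0.0608 to 0.0786) or with the replicate number as a block (0.0571). With arrays centred on their median, neither passed (adjusted p = 0.159 and 0.112). Tbce (0.28 ± 0.13), Tbcc (0.09 ± 0.14) and Tbcd (-0.06 ± 0.07) did not pass, but Tbce did without vehicle animal 1 (adjusted p = 0.0243).

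Of 15 actin, actin-related and tubulin genes listed as clients of CCT, 7 were tested. Of these 7, 6 rose, beside 22.3% of all genes tested. These clients were read at the level of their own transcripts. Tuba4a, an alpha-tubulin, had signals of 994, 820, 645, 1171 and 923 in the RG3487 livers, against 409, 424, 309, 448 and 442 in the vehicle livers. Its lowest treated liver, animal 3, still exceeded every vehicle liver, and it rose by 1.12 ± 0.14 (2.17-fold, limma, adjusted p = 0.000322). Tubb4b, a beta-tubulin, had signals of 1132, 1048, 1227, 1407 and 1248 in the RG3487 livers, against 669, 677, 598, 706 and 662 in the vehicle livers. It rose by 0.85 ± 0.08 (1.80-fold, adjusted p = 3.98e-05), and its treated low was not animal 3 but animal 2. Tubb5 rose by 0.50 ± 0.10 (adjusted p = 0.00469) and Tubg1, the gamma-tubulin of centrosomes, by 0.40 ± 0.07 (adjusted p = 0.00226). Actg1, cytoplasmic gamma-actin, rose by 0.30 ± 0.08 (adjusted p = 0.0136). Its groups overlapped, with RG3487 animal 3 at 3430 and the highest vehicle liver at 3623.

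Tubb2a missed the threshold at 0.24 ± 0.13 (adjusted p = 0.195). Actr2, of the ARP2/3 complex, rose by 0.15 ± 0.05 (adjusted p = 0.0465), and its 3 probe sets gave changes of 0.15, 0.25 and 0.06. It did not pass when any array other than RG3487 animal 3 or vehicle animal 5 was left out (adjusted p = 0.0566 to 0.108), with the replicate number as a block (0.101) or with arrays centred on their median (0.389).

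Other reported clients mostly did not pass, with 1 of 9 higher and a median of 0.14. Stat3, a transcription factor that CCT has been shown to fold, rose by 0.55 ± 0.16 (limma, adjusted p = 0.0263). It did not pass without RG3487 animal 1, 3 or 5 or vehicle animal 2 (adjusted p = 0.0504 to 0.0596), with arrays centred on their median (0.0574) or with quantile normalization (0.0757), while its second probe set rose by 0.49 ± 0.11 (adjusted p = 0.00571). Hdac3 (0.17 ± 0.06, adjusted p = 0.0625), the G protein subunit Gnb2 (0.16 ± 0.07, adjusted p = 0.107) and the cell cycle regulator Fzr1 (0.24 ± 0.13, adjusted p = 0.189) did not pass, though Gnb2 did without RG3487 animal 3 (adjusted p = 0.0272). Centring the arrays moved Gnb2 further from the threshold (limma, adjusted p = 0.357). The other 5 clients had values between -0.04 and 0.14.

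Cytosolic HSP70 and HSP90 partners rose in 6 of the 11 tested, out of 15 listed, with a median of 0.28. Stip1, which links HSP70 to HSP90, had signals of 586, 599, 524, 765 and 639 in the RG3487 livers, against 475, 391, 370, 445 and 339 in the vehicle livers, and rose by 0.60 ± 0.11 (limma, adjusted p = 0.00202). This was about the size of the change in Tcp1, and the groups did not overlap. Dnaja1 rose by 0.34 ± 0.06 (adjusted p = 0.002), Dnaja2 by 0.29 ± 0.06 (adjusted p = 0.00388) and Hsp90ab1 by 0.28 ± 0.06 (adjusted p = 0.00774). Hspa4, an exchange factor of HSP70, rose by 0.42 ± 0.15 (adjusted p = 0.0494) and Bag3 by 0.31 ± 0.09 (adjusted p = 0.0319).

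The calls of Hspa4 and Bag3 were close to the threshold. Hspa4 did not pass without RG3487 animal 1, 2, 4 or 5 or vehicle animal 3, 4 or 5 (adjusted p = 0.0573 to 0.113), nor Bag3 without RG3487 animal 1, 2, 4 or 5 or vehicle animal 2, 3, 4 or 5 (0.0515 to 0.0767). With the replicate number as a block they did not pass either (0.0538 and 0.0581), nor with arrays centred on their median (0.0891 and 0.0756). Dnajc7 (0.24 ± 0.09, adjusted p = 0.0806), Hsph1 (0.23 ± 0.10, adjusted p = 0.117) and Bag1 (0.10 ± 0.07, adjusted p = 0.252) did not pass. Dnajc7 and Hsph1 did pass without RG3487 animal 3 (adjusted p = 0.0421 and 0.0264). Centring the arrays moved these 2 further from the threshold (limma, adjusted p = 0.207 and 0.297). The strongly heat-inducible Hspa1a stood at -0.07 ± 0.37 without passing (limma, adjusted p = 0.907). Its signals were 106 ± 61 in the RG3487 livers and 118 ± 79 in the vehicle livers (SD, n = 5 each). Single livers ran from 51 to 240. The remaining gene of this list, Dnajb1, changed by 0.22 ± 0.14 without passing (adjusted p = 0.255).

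The mitochondrial chaperonin, which is built from Hspd1 (HSP60) and its lid Hspe1 (HSP10), rose in both genes. Hspd1 rose by 0.30 ± 0.07 (limma, adjusted p = 0.00705) and Hspe1 by 0.32 ± 0.05 (adjusted p = 0.00125), each with no overlap of the groups. Of the heat shock factors and their binding protein, Hsf1, the main activator of the heat shock response, changed by 0.11 ± 0.13 without passing (adjusted p = 0.553), as did Hsbp1 (-0.08 ± 0.05, adjusted p = 0.29). Hsf2 rose by 0.27 ± 0.08 (adjusted p = 0.0228) but did not pass without RG3487 animal 2 or 5 or vehicle animal 3 (adjusted p = 0.0514 to 0.0585) or with arrays centred on their median (0.0899), and neither did its 2 other probe sets.

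**Figure D5:**
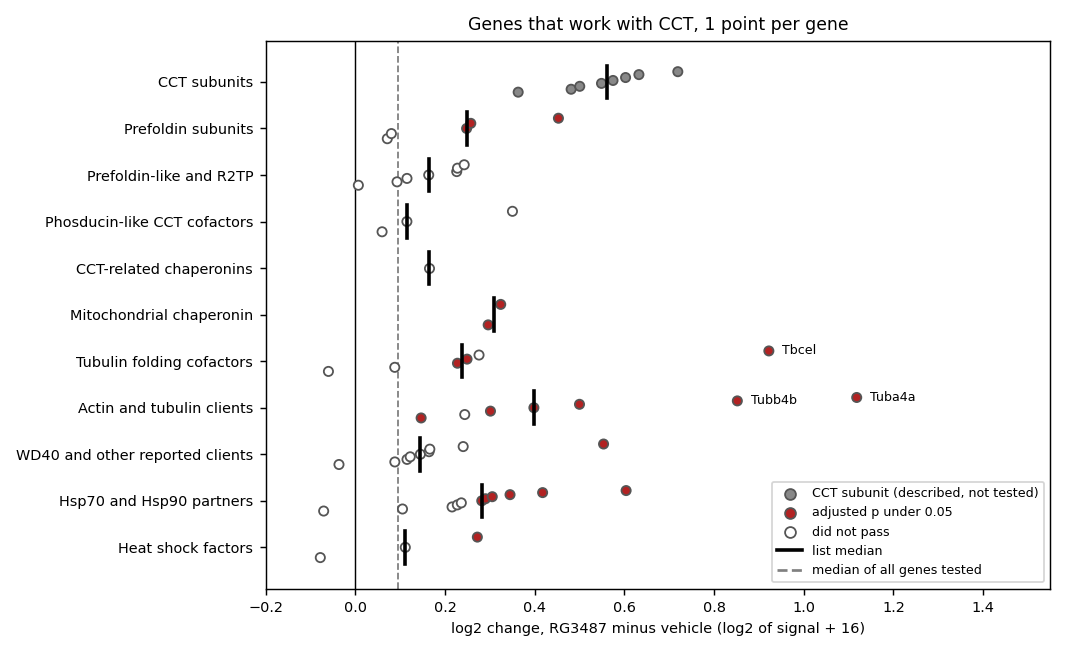
Log2 change, RG3487 minus vehicle, of each tested gene (1 point per gene, brightest probe set), by list. Red points passed at an adjusted p under 0.05, white points did not, grey points are the CCT subunits, black bars are list medians and the dashed line is the median of all genes tested (0.09). The CCT subunits lie between 0.36 and 0.72, and Tuba4a, Tbcel and Tubb4b lie above all of them.

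Hepatocyte markers (Alb, Apoa1, Apob, Ttr, Serpina1, Cps1 and Ass1) were bright in all livers, with summed signals of 40733 to 49115 in the RG3487 livers, against 49836 to 53416 in the vehicle livers, and 5 of 7 fell. Kupffer and myeloid markers rose in 1 of 7 (Lyz2) and fell in 2 (Cd14 and Cd163), with sums of 3196 to 3783 in the RG3487 livers against 3595 to 4243 in the vehicle livers. Endothelial markers fell in 1 of 5 (Lyve1), with sums of 1949 to 2277 in the RG3487 livers against 2300 to 2569 in the vehicle livers. Stellate and fibroblast markers rose in 1 of 5 (Col1a1), with sums of 1480 to 1767 in the RG3487 livers against 1325 to 1756 in the vehicle livers. The 2 erythroid markers, Epcam for bile ducts and Pcna for dividing cells did not pass, no lymphocyte marker was analysed here, and Des, Acta2, Krt19, Spp1, Mki67, Top2a, Ccnb1 and Cdk1 were below the filter on dim signals. Beside these marker counts, 22.3% of all genes tested rose and 7.4% fell. No tested marker was at 0 on any array. The part of these shifts in the subunit values was not tested.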

How the data were processed

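Liver RNA from 10 rats was measured on 1 array each. Per the submitters' processing notes the deposited signal intensities were made with MAS5; which version and scaling target were used was not stated. The table held 15899 probe sets, of which 40 were controls, 12562 carried 1 gene in the platform annotation, 332 several and 2965 none. After 16 was added, the signals were put on the log2 scale, leaving out controls and the dimmest 25% of probe sets. The groups were compared with limma 3.58.1 in R 4.3.3 (lmFit, eBayes with trend), two-sided, with Benjamini-Hochberg adjustment over 11894 probe sets. A gene was taken by its brightest probe set. Array medians were compared by an exact permutation over 252 regroupings. The members, gene lists and alternatives were chosen with earlier results of these data known. Named genes were all CCT probe sets, list members that passed and up to 3 others per list with the smallest p. The 5 genes with the most similar deviations were also named. Hspa1a, Dnajb1, the second probe sets and the neighbouring genes were added after their values were seen. Animal numbers do not pair the groups: deviations of same-numbered animals correlated between -0.04 and 0.17. No replicate pair was identical, and arrays of one group correlated at 0.977 to 0.986. Precision is limited by having 10 arrays. The code was tested on simulated data.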

Additional observations from a re-analysis of the deposited data

Results flagged for a closer look

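In 5 groups of 5 animals, 1 value lay far from the rest by Dixon's ratio, the gap to the nearest value over the whole range, with a critical value of 0.71. With 122 groups checked, chance alone would mark about 1 in 20 of them. Vehicle animal 5 was the low value for Cct3 (ratio 0.808), and RG3487 animal 3 was the low value for the second Cct8 probe set (0.732). Vehicle animal 3 was low for Tuba4a (0.719), and vehicle animal 5 was low for Dnajc7 (0.795) and Emg1 (0.727).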

How the results depend on the processing

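Scaling of the arrays moved the counts. The median change of all genes was 0.09 as deposited, 0.02 with quantile normalization or with arrays centred on their median, and 0.28 when scaled to 18 hybridization spike-in probe sets, which assumes equal amounts added to each sample. The probe sets higher and lower numbered 2443 and 852 (74.1% higher) as deposited, 1418 and 1195 (54.3%) with quantile normalization, 1359 and 1335 (50.4%) when centred, 6316 and 362 (94.6%) with spike-in scaling, and 249 and 213 at 1.5-fold or more. CCT probe sets higher numbered 9 with quantile normalization, which lost the second probe sets of Cct6a and Cct8, 10 when centred, where the second Cct6a probe set did not pass, 10 of 10 tested with the dimmest 50% left out, where it was not tested, 3 at 1.5-fold or more and 11 under the other alternatives run, with 0 lower throughout. The median CCT change was 0.76 with spike-in scaling, and 0.53 to 0.61 when single arrays were left out (0.44 to 0.51 above all genes, with 11 higher throughout). Genes of the other lists numbered 22 higher as deposited, 14 higher and 1 lower (Hsbp1, named after its value was seen) with quantile normalization, 13 higher when centred, 45 higher with spike-in scaling, 4 higher at 1.5-fold or more, and 16 to 26 when single arrays were left out, where all probe sets higher ran from 1803 to 2560 and lower from 688 to 889. The median correlation of the subunits was 0.55 without RG3487 animal 3 and vehicle animal 5, an alternative chosen after seeing the data. With the replicate number as a block, 2098 probe sets were higher and 820 lower, and all 11 CCT probe sets passed. Actr2, Bag3, Hspa4 and Tbcb lost their calls there, and pairing by these numbers was not seen. Signs turned for 10 named genes, none of which passed as deposited: with quantile normalization for Pfdn1 (-0.0229), Pfdn6 (-0.0253), Pdcl (-0.0168), Tbcc (-0.00514), Bag1 (-0.00161) and Tprg1l (-0.0807), when centred for Pfdn6 (-0.00714), Pdcl (-0.0188) and Tprg1l (-0.0605), with spike-in scaling for Tbcd (0.12), Hsbp1 (0.12), Rabac1 (0.10) and Pradc1 (0.0873), and for Tprg1l, which ran from -0.0328 without vehicle animal 5 to 0.0698 without RG3487 animal 3 and was -0.0214 without RG3487 animal 5. The cause of these shifts was not tested.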
